A study of Zea mays with 6 samples.

Results

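The tapetum is the innermost wall layer of the anther, which feeds the developing pollen and then dies. A chain of transcription regulators sets its fate, and 4 maize genes of that chain were followed here by their identifiers: ms32 (Zm00001d006564), bHLH51 (Zm00001d053895), bHLH122 (Zm00001d017724) and ms7 (Zm00001d020680). They are 4 of the 46430 rows of the gene count table, and all 4 were found in it. The table carries no gene names, so each name was paired with its identifier from maize gene nomenclature.

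The RNA-seq libraries were made from anthers of Zea mays, with the stage given as S3-S5. The 3 wild-type libraries (WT) carry the genotype code AA. The 3 zmrpn1 libraries carry the code aa, are labelled as a knockout of ZmRPN1, and have titles that hold the word Mutator. Mutator elements are mobile DNA with which many maize insertion mutants are made, but the titles do not say that the word means these. The series title ties the gene to pollen number, and the genotypes are compared here for the transcripts of these regulators. Whether libraries came from single plants or from pools, and whether the genotypes shared a family, is not in the labels. The p-values therefore measure the spread between these libraries, which may be technical.

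Library totals ran from 16203290 to 29515176 counts. No identifier is given for ZmRPN1 itself, so the genotype labels were not checked against the targeted gene. The tissue was not checked, because none of the marker symbols could be paired with a row of the table. Counts of the listed genes alone cannot show that the tissue was right or unmixed. The 3 bHLH genes had counts in all 6 libraries, and ms7 had counts in 1 of them.

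The first 3 genes encode basic helix-loop-helix (bHLH) proteins, which bind DNA as pairs of subunits. In maize ms32 acts early: without it the cells of the young tapetum layer keep dividing and the plant is male sterile. The bHLH51 and bHLH122 proteins act in later steps of the same chain and are the maize relatives of TDR and EAT1, which drive tapetum maturation and death in rice. The ms7 gene encodes a protein with a PHD finger, a zinc-binding fold that many chromatin proteins carry, and it is the counterpart of MALE STERILITY1 of Arabidopsis. It acts late, after meiosis, in tapetum death and in building the outer pollen wall.

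The bHLH genes were detected in anthers of both genotypes, with zmrpn1 means 1.10 times (ms32), 1.11 times (bHLH51) and 0.949 times (bHLH122) those of WT in the fit, and the late gene ms7 was at or below the limit of detection in both. Values are CPM, counts scaled to a common library size, after TMM scaling of the library sizes, and they are not divided by gene length, so they were compared between genotypes and not between genes. Of the 4 genes 3 passed the filter on low counts and were tested, and 0 of these 3 were called in the edgeR quasi-likelihood test (n = 3 and 3), where a call is an adjusted p (Benjamini-Hochberg, over all tested genes) under 0.05. Over all 23477 tested genes 12.4% were called. None of the 3 had an unadjusted p under 0.05, and DESeq2 and limma-voom also called 0 of the 3. In whole anthers, a difference in the number of tapetum cells and a difference in RNA per cell cannot be told apart.

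Counts of the early gene ms32 were 189, 150 and 284 in WT and 178, 224 and 286 in zmrpn1. These are 9.34, 9.29 and 9.61 CPM in WT and 9.40, 10.7 and 11.0 CPM in zmrpn1. Replicates 2 and 3 of zmrpn1 lay above all WT libraries and replicate 1 lay among them, so the groups overlapped. The mean was 9.41 ± 0.175 CPM in WT and 10.4 ± 0.860 CPM in zmrpn1 (mean ± SD, n = 3). The log2 change was 0.14 ± 0.11 (standard error; edgeR adjusted p = 0.468). Its 95% interval ran from -0.07 to 0.36, which is a ratio of zmrpn1 to WT between 0.950 and 1.28.

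The WT libraries lay close together for ms32. Their coefficient of variation was 1.86%, below the 7.16% that counting error alone gives at these depths. In zmrpn1 it was 8.28%, against 6.66% from counting error.

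The bHLH51 gene had 7.46, 5.26 and 6.16 CPM in WT and 6.71, 6.21 and 8.06 CPM in zmrpn1, from 85 to 209 counts a library. The highest library was replicate 3 of zmrpn1 and the lowest was replicate 2 of WT, the library with the fewest counts in total. Replicate 1 of WT lay above 2 of the 3 zmrpn1 libraries, and the groups overlapped. The mean was 6.29 ± 1.11 CPM in WT and 6.99 ± 0.954 CPM in zmrpn1 (mean ± SD, n = 3). The log2 change was 0.15 ± 0.14 (standard error; edgeR adjusted p = 0.569). The 95% interval of the change was -0.13 to 0.44 on the log2 scale, or a ratio between 0.915 and 1.35. The estimate was 0.28 without WT replicate 1 and 0.03 without zmrpn1 replicate 3, so single libraries moved it by nearly its own size. The observed coefficient of variation for this gene was 17.6% in WT and 13.6% in zmrpn1, against 8.72% and 8.10% from counting error. Each value rests on 3 libraries, and the excess was not tested.

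The bHLH122 gene had the fewest counts of the tested bHLH genes, with 26, 15 and 36 in WT and 27, 19 and 26 in zmrpn1. These are 1.28, 0.929 and 1.22 CPM in WT and 1.43, 0.908 and 1.00 CPM in zmrpn1. The highest and the lowest library were both zmrpn1, and the WT libraries lay between them. The mean was 1.14 ± 0.189 CPM in WT and 1.11 ± 0.276 CPM in zmrpn1 (mean ± SD, n = 3). The log2 change was -0.08 ± 0.30 (standard error; edgeR adjusted p = 0.925). The sign of this estimate was not fixed, since it was 0.00127 without WT replicate 1 and 0.0413 without zmrpn1 replicate 2. The 95% interval of the change was wide, from -0.69 to 0.54, or a ratio between 0.621 and 1.45. Counting error alone gives a coefficient of variation of 20.3% in WT and 20.6% in zmrpn1 at these counts, and the observed values were 16.6% and 24.8%.

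The late gene ms7 had 0 counts in each of the 3 WT libraries. It had 0 counts in replicates 1 and 2 of zmrpn1 and 1 count in replicate 3, which is 0.0386 CPM. The 0 counts over the 3 WT libraries together allow a level of up to 0.0453 CPM, taking a limit of 3 counts. For a single library this limit is 0.102 to 0.185 CPM. The 1 count over the zmrpn1 libraries is 0.0153 CPM of the summed totals, with an exact 95% interval from 0.000386 to 0.0850 CPM. The same interval for the WT libraries ran from 0 to 0.0557 CPM. Neither genotype stood above the other by more than counting error, which is all these limits cover, and no ratio is given. Of all rows of the table, 32.2% had at most 1 count over the 6 libraries and 28.5% had none.

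**Figure D1:**
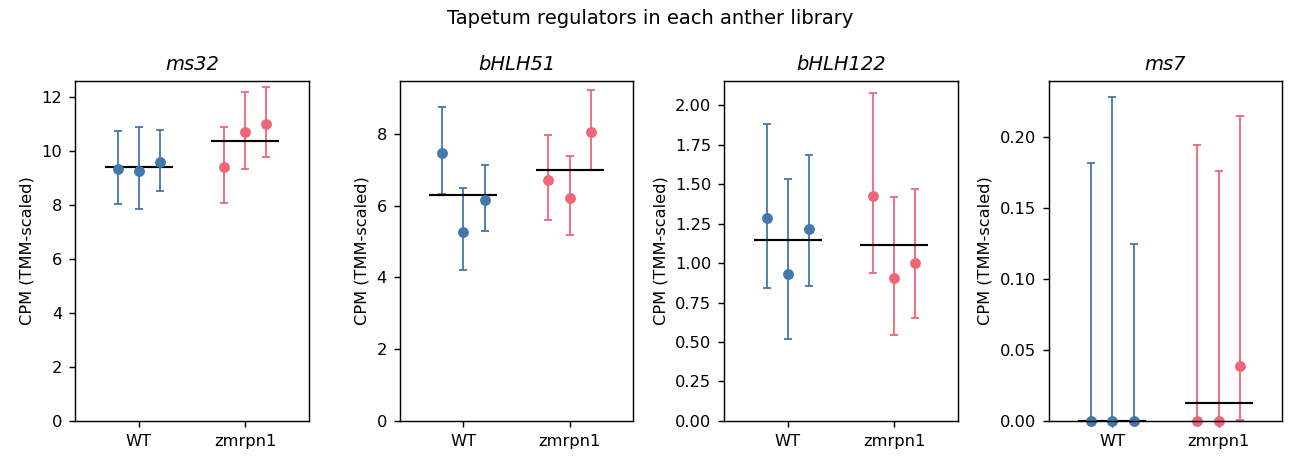
TMM-scaled CPM (vertical axes, each from 0) of ms32, bHLH51, bHLH122 and ms7 in the 3 WT and 3 zmrpn1 libraries, replicates 1 to 3 from left to right. Points are libraries, error bars are exact 95% counting intervals and black lines are group means. The genotypes overlap for the 3 bHLH genes, and ms7 is at 0 in every library except zmrpn1 replicate 3 at 0.0386 CPM.

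Members of the chain differed in how large an estimated change had to be for a call. The largest unadjusted p that was called over all tested genes was 0.00621. With the standard errors above, that p corresponds to a log2 change of 0.31 for ms32, 0.40 for bHLH51 and 0.88 for bHLH122, or ratios of 1.24, 1.32 and 1.83. Smaller estimates would not have been called with these standard errors. The share of true differences of a given size that would be called is not given here. In the main fit the intervals for ms32 and bHLH51 leave out a fall below 0.950 and 0.915 of the WT level. They also leave out a rise above 1.28 and 1.35 times that level. These bounds depend on the fit. DESeq2 gave larger standard errors, 0.14 for ms32 and 0.18 for bHLH51. Without WT replicate 1 the log2 change of bHLH51 was 0.28 ± 0.15 (standard error). For bHLH122 the interval still holds a fall to 0.621 of WT.

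**Figure D2:**
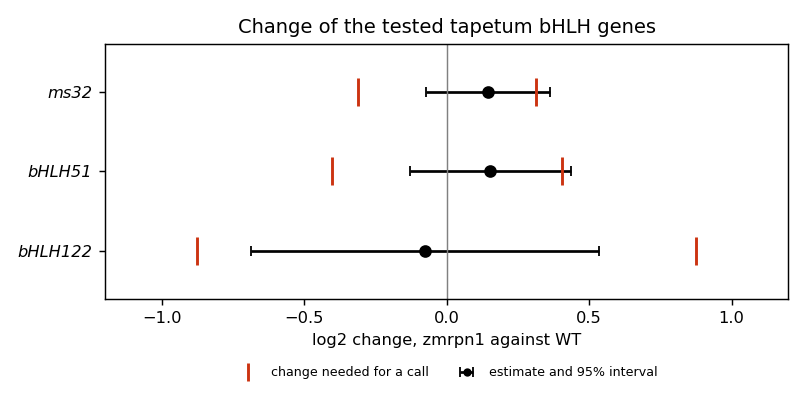
Log2 change of ms32, bHLH51 and bHLH122 in zmrpn1 against WT (horizontal axis), with points for the edgeR estimates, black bars for their 95% intervals and red marks for the change that would have been called with each gene's standard error. All 3 intervals include 0 and all 3 points lie inside the red marks, which stand at 0.31, 0.40 and 0.88 on either side.

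The changes of the bHLH genes were set against those of the whole table. The median log2 change of the 3 tested members was 0.14, and the median over all tested genes was 0.00124. The median absolute change over all tested genes was 0.104 log2 units. A smaller absolute change than that of ms32 was seen in 61.2% of tested genes, and the share was 63.4% for bHLH51 and 39.4% for bHLH122. In 0 of the 3 did the CPM values of the genotypes lie apart, where 27.0% of all tested genes had groups that did not overlap. The biological coefficient of variation fitted by edgeR was 6.33% for ms32, 8.60% for bHLH51 and 14.1% for bHLH122, against a median of 5.70% over tested genes. Of the tested genes, 37.1% had a lower average CPM than ms32, 30.3% than bHLH51 and 8.61% than bHLH122. The values over all tested genes were not matched for this level.

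**Figure D3:**
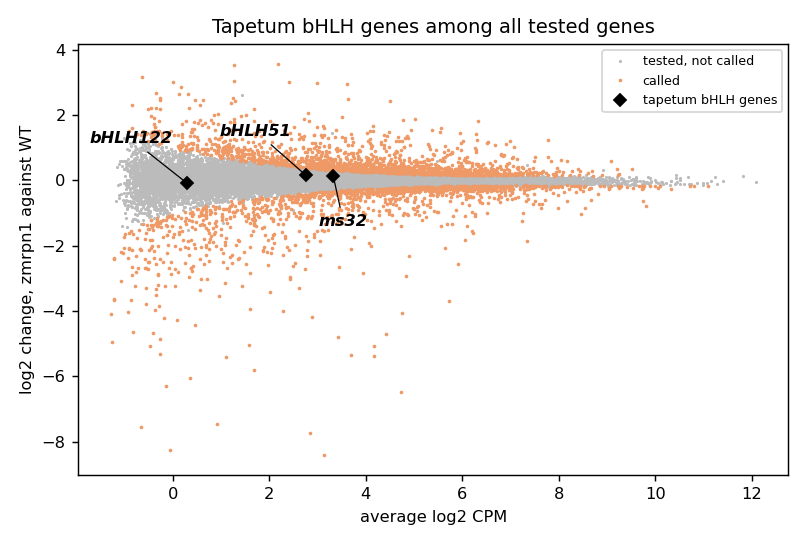
Log2 change in zmrpn1 against WT (vertical axis) by average log2 CPM (horizontal axis) for the 23477 tested genes, with called genes in orange, other genes in grey and the 3 tested bHLH genes as black diamonds. The diamonds lie within the grey band, at 0.14 for ms32, 0.15 for bHLH51 and -0.08 for bHLH122, and ms7 is not drawn because it was not tested.

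The balance between early and later regulators was compared within each library, where scaling and gene length drop out of a comparison between genotypes. For every 100 counts of ms32 there were 79.9, 56.7 and 64.1 counts of bHLH51 in the WT libraries and 71.3, 58.0 and 73.1 in the zmrpn1 libraries. Both the highest and the lowest of these ratios were WT libraries. The mean log2 ratio was -0.60 ± 0.25 in WT and -0.57 ± 0.18 in zmrpn1 (mean ± SD, n = 3), a difference of 0.02 (two-sided exact permutation p = 0.9). Its sign was not fixed, with values from -0.09 without WT replicate 2 to 0.16 without WT replicate 1.

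The ratio of bHLH122 to ms32 varied more from library to library. There were 13.8, 10 and 12.7 counts of bHLH122 for every 100 of ms32 in WT and 15.2, 8.48 and 9.09 in zmrpn1. Replicate 1 of zmrpn1 was the highest library and the other zmrpn1 libraries were the lowest. The mean log2 ratio was -3.05 ± 0.24 in WT and -3.25 ± 0.46 in zmrpn1 (mean ± SD, n = 3), a difference of -0.19 (two-sided exact permutation p = 0.7). The difference was -0.45 without zmrpn1 replicate 1 and -0.04 without zmrpn1 replicate 2, and it lay between these values without any other library.

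Between the later genes, there were 17.2, 17.6 and 19.8 counts of bHLH122 for every 100 of bHLH51 in WT and 21.3, 14.6 and 12.4 in zmrpn1. The WT libraries lay close together and the zmrpn1 libraries lay on both sides of them. The mean log2 ratio was -2.46 ± 0.11 in WT and -2.67 ± 0.40 in zmrpn1 (mean ± SD, n = 3), a difference of -0.21 (two-sided exact permutation p = 0.5). The difference was -0.43 without zmrpn1 replicate 1 and -0.04 without zmrpn1 replicate 3, and it lay between these values without any other library. Over the 3 ratios the adjusted p was 0.9 for each in the exact permutation test, and 3 libraries against 3 cannot give a p below 0.1. Ratios to ms7 could not be formed, since the WT libraries held 623 counts of ms32 and 0 of ms7, and the zmrpn1 libraries held 688 and 1.

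**Figure D4:**
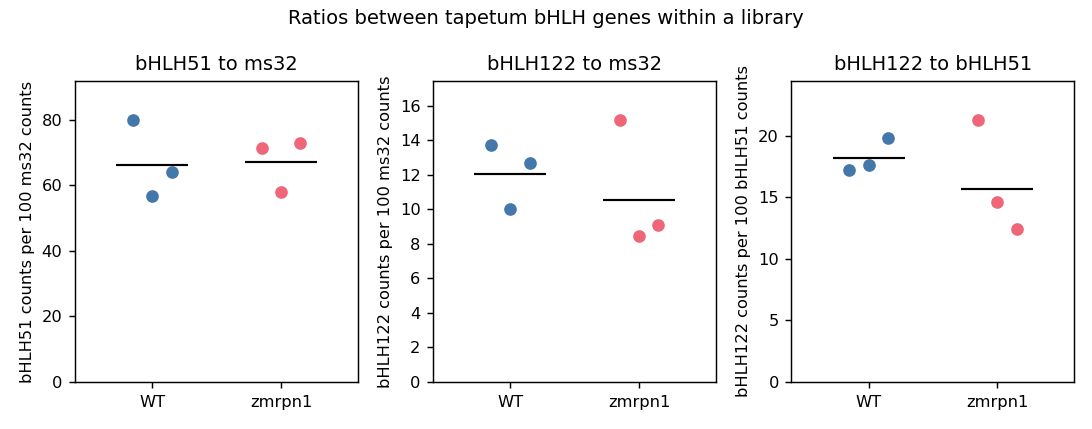
Counts of bHLH51 and bHLH122 for every 100 counts of ms32, and of bHLH122 for every 100 counts of bHLH51 (vertical axes, each from 0), in each library by genotype. Points are libraries, replicates 1 to 3 from left to right, and black lines are geometric means. The genotypes overlap in all 3 ratios, and the zmrpn1 libraries spread from 12.4 to 21.3 in the ratio of bHLH122 to bHLH51 where WT runs from 17.2 to 19.8.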

How the data were processed

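Per the labels' protocols, libraries were prepared from DNase-treated total RNA of anthers with the NEBNext Ultra II kit. Of the tools, the submitters' processing notes give featureCounts 1.6.4, HISAT2 2.2.1, StringTie 1.3.6, Trimmomatic 0.39 and DESeq2, and the build is B73 RefGen_v4. The authors deposited raw counts per gene. The handling of strand and of reads with several matches is not stated in the labels. Reads shared between related bHLH genes or overlapping genes may be divided uncertainly.

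The members, lists and tests were chosen with earlier results of these data known. The counts were fitted in edgeR 4.0.16 (R 4.3.3) with filterByExpr (minimum count 10), TMM scaling, and a robust quasi-likelihood test adjusted over all tested genes. The procedure was also run on simulated data, with changes placed only in genes averaging at least 1 log2 CPM. That leaves out the level of bHLH122, which averaged 0.289 log2 CPM. The simulated counts followed the fitted trend of the spread and not each gene's own spread. The outcome of the simulation is not given here, and no result rests on it. Standard errors come from the log2 change and its F statistic. Depth ranged from 16203290 to 29515176 counts a library, and 95% intervals on counts and the limit of 3 counts cover counting error only. Chi-square per degree of freedom between replicates was 2.00 to 4.65, so each library counted as 1 replicate. The text names the 4 members and, for each tested one, the gene of at least 1 log2 CPM most like it. The reference table for another build matched 0 of the 24 symbols listed for other genes of the chain and 0 of the 23 marker symbols to a row of the count table, so these are not reported. Alternatives were other scalings, filters and tests (DESeq2 1.42.0, limma-voom in limma 3.58.1), a replicate block, each library left out in turn and 0.5 counts added before ratios. Sequences of the members are not used here.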

Additional observations from a re-analysis of the deposited data

How the results depend on the processing

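The 3 tested bHLH genes kept an adjusted p over 0.05 in all 14 alternative fits, with adjusted p of 0.327 to 0.737 for ms32, 0.303 to 0.947 for bHLH51 and 0.734 to 1.00 for bHLH122. The log2 changes of ms32 and bHLH51 stayed positive in all 14. That of bHLH122 turned from -0.08 to 0.00127 without WT replicate 1 and to 0.0413 without zmrpn1 replicate 2, and the cause was not tested. Leaving out 1 library gave 0.10 to 0.21 for ms32, 0.03 to 0.28 for bHLH51 and -0.27 to 0.04 for bHLH122. With the replicate number as a block the log2 changes were 0.14, 0.17 and -0.06, and no call changed. The labels do not say whether libraries with the same number shared a plant, batch or day. Their deviations from the group means had correlations of -0.0374, 0.0198 and 0.0306 for replicates 1, 2 and 3. Such values cannot show that nothing was shared. Over all genes, 1556 were higher and 1366 lower in zmrpn1. The alternatives gave 1072 to 1719 and 1033 to 1517, with 1620 and 1386 under the block, and 1719 and 1273 with library size only. Leaving out 1 library gave differences in log2 ratio of -0.09 to 0.16 for bHLH51 to ms32, -0.45 to -0.04 for bHLH122 to ms32 and -0.43 to -0.04 for bHLH122 to bHLH51. These moves were within the larger of the 2 groups' SDs, but for both bHLH122 ratios the widest exceeded the WT SD of 0.24 and 0.11. The ratio of ms7 to ms32 gave no value, because ms7 was at 0 in 5 libraries. Counting error weighed most on bHLH122 and ms7, which had the fewest counts. Whether deeper libraries would show ms7 was not tested.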

Other observations

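For each tested bHLH gene, the most similar pattern among other genes with an average of 1 log2 CPM or more was found by Pearson's r of log2 CPM over the 6 libraries. The points share libraries and depth, and r is given as a description. For ms32 it was Zm00001d047990 (r = 0.993), at a mean of 21.0 CPM in WT and 22.9 CPM in zmrpn1, with a log2 change of 0.12 (edgeR adjusted p = 0.381). For bHLH51 it was Zm00001d052475 (r = 0.994), at 80.1 and 82.4 CPM, with a log2 change of 0.04 (edgeR adjusted p = 0.738). For bHLH122 it was Zm00001d035439 (r = 0.979), at 10.1 and 9.88 CPM, with a log2 change of -0.05 (edgeR adjusted p = 0.860). None of these 3 genes passed the test, where 12.4% of all tested genes did. Each was chosen for its likeness to a gene that was not called, so this is no separate result. At the lower bound of r = 0.9 there were 202 genes for ms32, 178 for bHLH51 and 61 for bHLH122. The search covered those of the 23477 tested genes that averaged at least 1 log2 CPM. Over 6 libraries, high values of r can arise by chance in a search of this size. A chance level was not computed, so the counts do not show that the genes are regulated together.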
